A study of Mus musculus with 6 samples.

Results

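Ubiquitin-specific proteases are the largest family of deubiquitinases, enzymes that cut the small protein ubiquitin off other proteins. Ubiquitin chains mark proteins for the proteasome, sort receptors into lysosomes or recruit repair and signalling factors, so these proteases can stabilise a protein or end a signal. In blood stem and progenitor cells, members of the family act on histone H2A, on p53 and its ligase Mdm2, and on cytokine signalling. The genes described here were those with a symbol of Usp followed by a digit, leaving out Usp1, Usp18 and pseudogenes, on probe sets with exactly 1 gene symbol. They were 53 of the 19938 genes tested and were covered by 56 probe sets. For the 3 genes with over 1 probe set (Usp24, Usp31 and Usp54), the one with the higher mean over the 6 arrays was used, a choice that did not use the groups. The name rule also took in Usp6nl, which encodes a Rab GTPase-activating protein, and Usp46os2, an opposite-strand transcript at the Usp46 locus, neither of which is a protease. Usp49 and Usp17le lay only on probe sets with several symbols and are not analysed here among the members.

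RNA came from KSL cells, the cKit+ Sca1+ Lin- fraction of mouse bone marrow that holds haematopoietic stem cells and early progenitors, with 3 arrays a group. The DKO group was Runx1fl/fl;Runx3fl/fl;Mx1-Cre+, a genotype made to lose both Runx transcription factors by Cre. The WT group was Runx1fl/fl;Runx3fl/fl;Mx1-Cre- littermates, so the controls also carried both floxed genes but no transgene. Mx1-Cre is driven by an interferon-responsive promoter, so it is not limited to blood stem cells. All mice were on a C57BL/6 background after at least 3 backcross generations, and the protocol, given alike for both groups, names 7 injections of 600 µg of pIpC, a double-stranded RNA analogue, from 4 weeks of age. Sample descriptions nevertheless call the cells of both groups untreated, and no source used here dates the collection of cells against the last injection. Each WT sample pooled 3 mice, while pooling of DKO samples was not stated and the design text counts 6 mice in all. DKO here means samples labelled so: the gene-level Runx1 signal was 9.29 ± 0.08 in DKO and 8.47 ± 0.08 in WT (SD, n = 3), and since it may include probes outside the deleted exons it cannot check the deletion.

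Values were log2 signals summarised over a whole gene, with array medians of 5.88 to 5.91 and lower quartiles of 4.63 to 4.66. Correlations between arrays were 0.989 to 0.995 within groups and 0.976 to 0.98 between them. The sorted receptor Kit and Cd34 were bright (mean 10.12 and 10.39). Of 6 measured genes listed as markers for KSL cells, not all of which sort or subdivide them, 4 rose in DKO (66.7%) and 1 fell (16.7%). Of all genes 9.71% rose and 7.69% fell. Slamf1 rose by 1.95, Cd48 by 1.46, Ptprc by 0.76 and Kit by 0.73 (adjusted p = 6.38e-05, 7.18e-05, 0.000459 and 0.00289). Flt3 fell by 1.32 and Cd34 did not pass (adjusted p = 0.000434 and 0.902). Ly6a, the gene of the sorted Sca1, was listed but was not among the genes tested. Of 9 lineage markers measured, 0 rose and 1 fell (11.1%), beside 9.71% and 7.69% of all genes. The one that fell was Nkg7, a gene of cytotoxic cells, with means of 7.13 in DKO and 9.15 in WT (-2.02, adjusted p = 8.42e-06). The other 8 had means of 3.47 (Ncr1) to 6.15 (Cd3e). The part of these marker shifts in the Usp differences was not tested. In whole-sample RNA, a change in the mix of cells and a change of RNA per cell cannot be told apart.

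Promoter sequences are shown for Usp24 and Usp34, whose rises had the smallest p among members, and Usp36, the member that fell. They are RefSeq windows of GRCm38.p6, 250 bases before to 50 bases after the annotated start, printed along the gene. Usp24 lies at chr4:106315963-106316262 (plus strand), Usp34 at chr11:23306645-23306944 (plus strand) and Usp36 at chr11:118290195-118290494 (minus strand). Capitals mark matches to motifs searched on both strands, which were the RUNX core TGTGGT, the ETS motif CCGGAAG, the SP/KLF box GGGGCGGGG, the NRF1 motif and the CRE motif TGACGTCA.
Usp24: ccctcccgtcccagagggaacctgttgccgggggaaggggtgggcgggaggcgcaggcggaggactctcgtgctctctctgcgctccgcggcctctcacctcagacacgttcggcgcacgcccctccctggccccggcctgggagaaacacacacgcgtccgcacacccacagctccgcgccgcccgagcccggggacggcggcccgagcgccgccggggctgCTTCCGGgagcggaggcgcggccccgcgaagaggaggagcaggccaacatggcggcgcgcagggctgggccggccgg
Usp34: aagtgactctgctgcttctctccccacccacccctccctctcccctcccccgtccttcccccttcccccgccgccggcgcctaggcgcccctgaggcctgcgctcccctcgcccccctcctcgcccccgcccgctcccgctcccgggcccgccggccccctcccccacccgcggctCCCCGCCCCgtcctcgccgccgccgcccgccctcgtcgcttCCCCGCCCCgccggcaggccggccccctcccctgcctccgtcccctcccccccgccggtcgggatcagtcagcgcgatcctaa
Usp36: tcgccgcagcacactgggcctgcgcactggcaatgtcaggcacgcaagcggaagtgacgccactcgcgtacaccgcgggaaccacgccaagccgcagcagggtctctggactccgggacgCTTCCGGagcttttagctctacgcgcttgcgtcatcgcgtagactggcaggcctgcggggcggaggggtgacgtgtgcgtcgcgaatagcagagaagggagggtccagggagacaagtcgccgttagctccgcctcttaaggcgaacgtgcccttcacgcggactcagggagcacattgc

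The Usp24 and Usp36 windows each hold 1 ETS match and the Usp34 window 2 SP/KLF boxes. Windows were found for 43 of the 53 genes, 44 in all since Usp6nl has 2. Their median GC content was 64% with 25 CpG sites, against 52.7% and 7 over all 32851 windows of the table. The SP/KLF box was in 11 of 44 member windows (25%) and 11.4% of all windows, and the ETS motif in 8 of 44 (18.2%) and 8.86%. The CRE motif was in 1 of 44 (2.27%) and 1.79%, and the NRF1 motif in 0 of 44 and 0.97%. The RUNX core was in 8 of 44 member windows (18.2%) and 16.8% of all windows. None of the 8 windows found for members that rose held the RUNX core, and none was in the Usp36 window. These are letter matches in short windows and say nothing of binding.

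All 4 Usp17l genes with a window, Usp17la, Usp17lb, Usp17lc and Usp17ld, held the RUNX core in the reverse direction within a shared stretch. These clustered genes on chromosome 7 are known as cytokine-inducible deubiquitinases of blood cells. The stretches are shown because they are 4 of the 8 member windows with the core, which is in capitals.
Usp17la: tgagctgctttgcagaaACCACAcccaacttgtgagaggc
Usp17lb: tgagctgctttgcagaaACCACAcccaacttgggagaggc
Usp17lc: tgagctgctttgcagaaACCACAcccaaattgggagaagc
Usp17ld: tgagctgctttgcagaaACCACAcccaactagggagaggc
The core began 123, 108, 165 and 187 bases before the start, in that order. The Usp17ld window held another core on the other strand, 129 bases before the start. The signals of the 4 genes did not pass the test, with differences between DKO and WT of -0.05, 0.05, 0.04 and -0.15. Usp17la (mean 3.05) and Usp17lb (4.02) were dim, and near-identical copies leave the split of signal between these genes uncertain.

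The comparison asks how the family differed between DKO and WT cells. In DKO cells 11 of the 53 genes rose and 1 fell at a limma p adjusted over all genes under 0.05, while 41 did not pass. An unadjusted p under 0.05 was found for 18 of the 53, beside 6168 of all 19938 genes. The 11 that rose, from 1.28-fold to 1.98-fold, were Usp24, Usp31, Usp34, Usp40, Usp9x, Usp33, Usp32, Usp38, Usp25, Usp14 and Usp51, and the 1 that fell was Usp36. The share that rose was 20.8%, beside 9.71% of all genes, and the share that fell was 1.89%, beside 7.69%. DKO values lay wholly above WT values in 16 members (30.2%, against 16.2% of all genes) and wholly below in 3 (5.66%, against 19.6%). The median difference over the members was 0.11 on the log2 scale, with quartiles of -0.05 and 0.27, against a median of -0.04 over all genes. Neither Usp6nl nor Usp46os2 passed. Without DKO replicate 3, 7 members rose (13.2%) and 0 fell, beside 6.27% and 4.28% of all genes. The family was picked out with earlier results of these data known, so these counts describe it and are not a test of it.

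**Figure D1:**
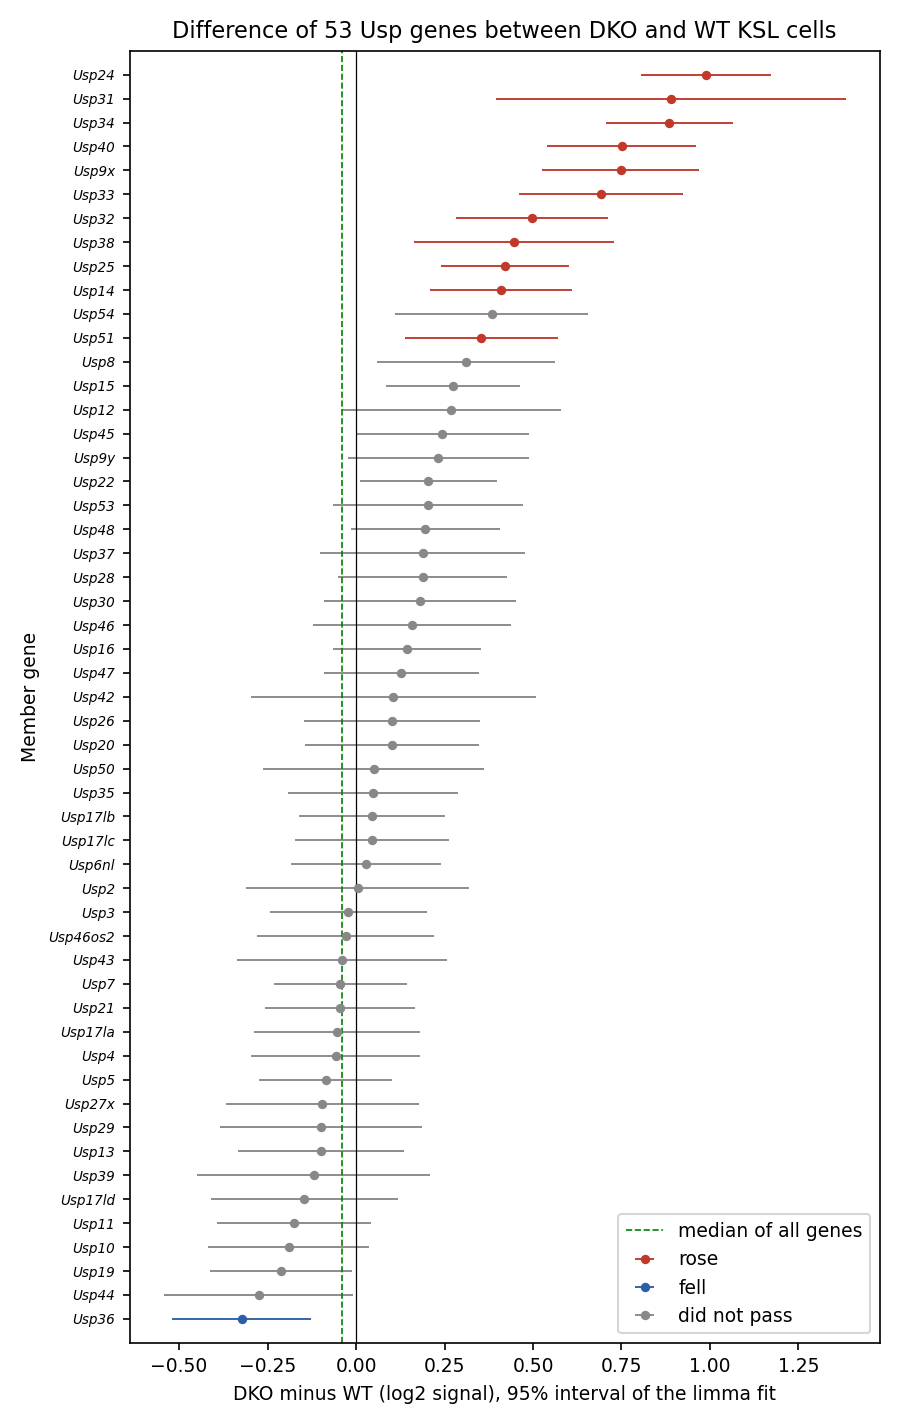
Each row is 1 of the 53 Usp genes, with the point at its DKO minus WT difference in log2 signal (3 arrays a group) and the bar its 95% interval from limma; the dashed line is the median of all genes. The 11 genes in red that rose reach 0.99 (Usp24), and the 1 in blue that fell, Usp36, is at -0.32.

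Signal and gene length moved with these results. The members were brighter than most genes, with 38 of 53 above the median signal of all genes, and longer, with a median gene span of 49 kb (52 genes with a span in RefSeq GRCm38.p6) against 17.7 kb over all genes. Of the 38 brighter members 10 rose (26.3%) and 1 fell, beside 17.5% and 10.5% of all brighter genes. Of the 15 dimmer members 1 rose (6.67%), Usp51, beside 1.94% of all dimmer genes. Across the members, Spearman's rho of the difference was 0.41 with mean signal (n = 53) and 0.44 with gene span (n = 52), and across all genes 0.21 and 0.15. These correlations are over genes measured on the same 6 arrays, so genes are not independent replicates. Once the signal trend was taken out, 9 members rose (17%) and 2 fell (3.77%), beside 7.95% and 7.70% of all genes. With the trend over signal and gene span removed, 6 rose (Usp24, Usp34, Usp40, Usp9x, Usp33 and Usp51) and 2 fell (Usp36 and Usp7), and the median over the members was 0.08. Those shares were 11.3% and 3.77%, beside 7.26% and 7.41% of all genes.

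**Figure D2:**
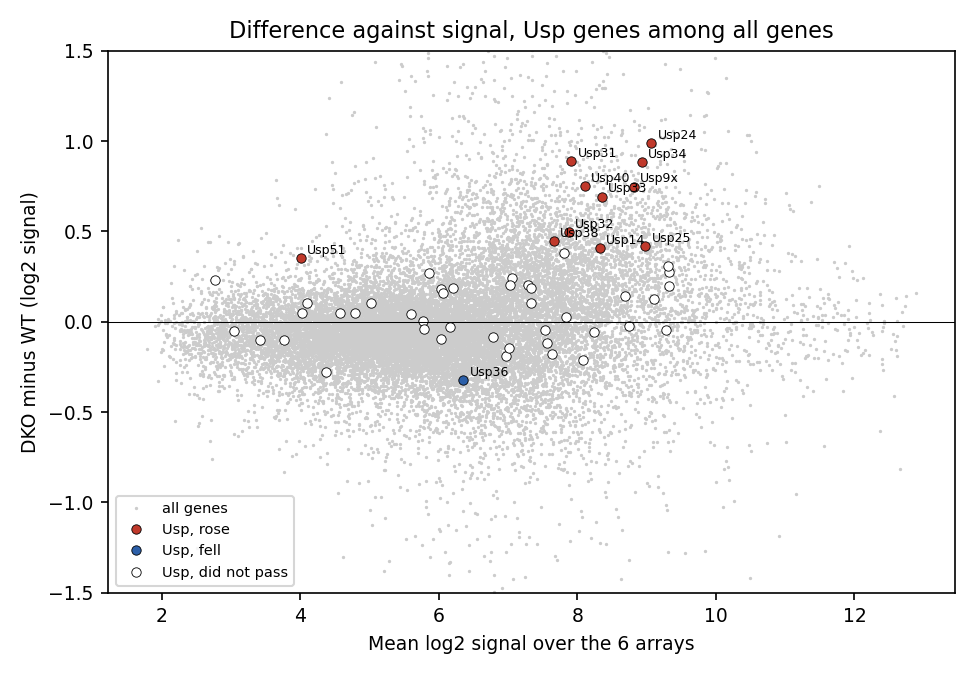
Horizontal axis, mean log2 signal over the 6 arrays; vertical axis, DKO minus WT in log2 signal, cut at 1.5 on either side, which leaves out 86 of all genes (grey dots). Filled circles are Usp genes that rose (red) or fell (blue) and open circles those that did not pass; 10 of the 11 that rose have signals of 7.66 to 9.07, while Usp51 is at 4.01.

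Among proteases of the p53 pathway and DNA damage response, 1 of 11 rose, 0 fell and 10 did not pass. The share that rose, 9.09%, was near the 9.71% of all genes. Of brighter genes, which 9 of these 11 are, 17.5% rose. The member that rose was Usp24, a very large protease reported to act on the DNA damage sensor Ddb2. Its signals were 9.51, 9.61 and 9.58 in DKO and 8.55, 8.61 and 8.57 in WT. The groups were far apart and the replicates close together, and the log2 difference of Usp24 was a rise of 0.99 (SE 0.08, adjusted p = 0.000107). The probe set of Usp24 that was not used gave 7.73, 7.78 and 7.87 in DKO and 6.52, 6.70 and 6.87 in WT, a difference of 1.09 (adjusted p = 0.00426 over all 35556 probe sets). Both probe sets of Usp24 thus stood higher in all 3 DKO samples. Usp24 was at 0.70 with the trend over signal and span removed (adjusted p = 0.000779).

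Usp7, the protease of Mdm2 and p53, had signals of 9.25, 9.21 and 9.30 in DKO and 9.33, 9.34 and 9.23 in WT. The groups overlapped, and the difference of -0.04 did not pass (adjusted p = 0.764). It was at -0.30 with the trend over signal and span removed (adjusted p = 0.043, in a range of 0.043 to 0.917 over 21 alternatives). Its relative Usp47, which acts on the repair polymerase beta, had 9.16, 9.15 and 9.19 in DKO and 9.18, 8.88 and 9.05 in WT, overlapping, with a difference of 0.13 (adjusted p = 0.415). Usp10, another protease of p53, lay wholly lower in DKO (7.00, 6.72 and 6.92 against 7.02, 7.17 and 7.02) but did not pass (-0.19, adjusted p = 0.24). Usp48 lay wholly higher in DKO without passing (0.20, adjusted p = 0.193). The others were Usp45 (0.24), Usp28 (0.19), Usp42 (0.11), Usp2 (0.00), Usp29 (-0.10) and Usp11 (-0.18), none of which passed.

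Among proteases of signalling and receptor traffic, 6 of 15 rose (40%), 0 fell and 9 did not pass, with a median difference of 0.27. Of all genes 9.71% rose, and of brighter genes, which 11 of these 15 are, 17.5%. Usp34, a very large protease that acts on axin in Wnt signalling, had signals of 9.36, 9.36 and 9.41 in DKO and 8.51, 8.46 and 8.50 in WT. It was wholly higher in DKO, by 0.88 (SE 0.08, adjusted p = 0.000165). Usp9x, the protease of the survival protein Mcl1 and of Smad4, had 9.14, 9.18 and 9.25 against 8.62, 8.35 and 8.36. It also stood wholly higher and rose by 0.75 (SE 0.10, adjusted p = 0.00114). Usp33, which acts on the receptor Robo1 and the centrosome protein CP110, had 8.56, 8.83 and 8.72 against 7.88, 8.10 and 8.05, a rise of 0.69 (SE 0.10, adjusted p = 0.00212). With the trend over signal and span removed, Usp34, Usp9x and Usp33 were at 0.58, 0.49 and 0.52.

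Usp31, linked to NF-kappaB signalling, had signals of 8.36, 8.24 and 8.47 in DKO and 6.93, 7.47 and 8.005 in WT. The WT samples were spread over more than 1 log2 unit, while every DKO sample was above them, and the rise was 0.89 (SE 0.22, adjusted p = 0.0222). The call of Usp31 was lost without DKO replicate 1 (adjusted p = 0.0682) or 3 (0.0851) and with the trend over signal and span removed (0.0603), in a range of 0.00329 to 0.0851. Its other, dimmer probe set showed 6.26, 6.22 and 6.23 in DKO and 6.23, 6.14 and 6.07 in WT. There the groups overlapped, and the difference was 0.09 (adjusted p = 0.509 over all probe sets, where the first was at 0.0786). The probe sets of Usp31 thus gave differences of unlike size, and whether they differ from each other was not tested. The mean of the probe sets was at 0.49.

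Usp25, a protease of Traf signalling proteins, had signals of 9.21, 9.20 and 9.18 in DKO and 8.80, 8.80 and 8.72 in WT. Replicates were close, and Usp25 rose by 0.42 (adjusted p = 0.00694), but it was at 0.15 with the trend over signal and span removed (adjusted p = 0.261). Usp38, reported to limit interferon induction, had 7.79, 8.04 and 7.82 in DKO and 7.31, 7.69 and 7.31 in WT. DKO replicate 1 was only just above WT replicate 2, and the rise of 0.45 (adjusted p = 0.0377) was among the weaker calls. It was lost under 10 of 21 alternatives, among them without any 1 DKO sample (adjusted p = 0.069, 0.13 and 0.0837) and without WT replicate 1 (0.0968) or 3 (0.115), over all alternatives 0.00944 to 0.13.

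Usp15, a protease of the TGF-beta receptor complex, and Usp8, which acts on endocytosed receptors with its partners Stam and Stam2, were wholly higher in DKO but did not pass. Usp15 had signals of 9.40, 9.44 and 9.53 in DKO and 9.21, 9.13 and 9.20 in WT, a difference of 0.27 (adjusted p = 0.0517). With the trend over signal and span removed Usp15 was at 0.00, while it passed with the arrays centred on their medians (adjusted p = 0.0488, in a range of 0.0306 to 0.99). Usp8 was at 0.31 (adjusted p = 0.0895). Usp4, the paralog of Usp15, had 8.11, 8.21 and 8.32 in DKO and 8.10, 8.41 and 8.30 in WT, overlapping, with a difference of -0.06 (adjusted p = 0.759). Usp19, anchored in the endoplasmic reticulum, was the lowest of these genes, wholly lower in DKO at -0.21 without passing (adjusted p = 0.141). It passed once arrays were quantile normalised (-0.32, adjusted p = 0.0294), scaled by cyclic loess (0.036) or freed of the signal trend (0.0361), the range over alternatives being 0.0294 to 0.321. Usp12 (0.27) and Usp46 (0.16), both activated by the partner Wdr48, and Usp13 (-0.10) did not pass. Leaving out WT replicate 1 brought Usp12 past the threshold (0.42, adjusted p = 0.0358, the lowest of 0.0358 to 0.528).

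Usp20 is the closest relative of Usp33, and its signals were 4.94, 5.06 and 5.22 in DKO and 5.10, 4.81 and 5.01 in WT. These overlapped, with a difference of 0.10 (adjusted p = 0.583) beside the rise of Usp33. Usp28, the relative of Usp25 and a protease of Myc, had 6.17, 6.38 and 6.37 in DKO and 5.99, 6.28 and 6.08 in WT, overlapping, with a difference of 0.19 (adjusted p = 0.269). Whether the relatives in each pair differ from each other was not tested.

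Usp9x is on the X chromosome and its homolog Usp9y on the Y chromosome, where Usp9y had signals of 2.93, 3.04 and 2.72 in DKO and 2.79, 2.69 and 2.51 in WT. These were among the dimmest 2% of genes and overlapped, with a difference of 0.23 (adjusted p = 0.201). Of 9 Y-linked genes tested, 3 rose (33.3%), 1 fell (11.1%) and 5 did not pass, beside 9.71% and 7.69% of all genes. Of the 4 brighter ones 3 rose and 0 fell, beside 17.5% and 10.5% of all brighter genes. Uty rose by 0.82, Kdm5d by 0.67 and Eif2s3y by 0.44 (adjusted p = 0.000355, 0.00148 and 0.0136), with means of 7.20 to 8.49. The dimmer Uba1y (mean 5.02), a homolog of the ubiquitin-activating enzyme Uba1, fell by 0.57 on the brightest of its 4 probe sets (adjusted p = 0.00607). Xist, the RNA of the inactive X chromosome, had 4.45, 4.24 and 4.21 in DKO and 4.41, 4.97 and 4.83 in WT, overlapping at low signal (-0.44, adjusted p = 0.0643). The part of the mice's sex in the values of the 6 X- and Y-linked members was not tested. Among the 47 members on other chromosomes or with none matched, 9 rose (19.1%) and 1 fell (2.13%), beside 9.71% and 7.69% of all genes.

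**Figure D3:**
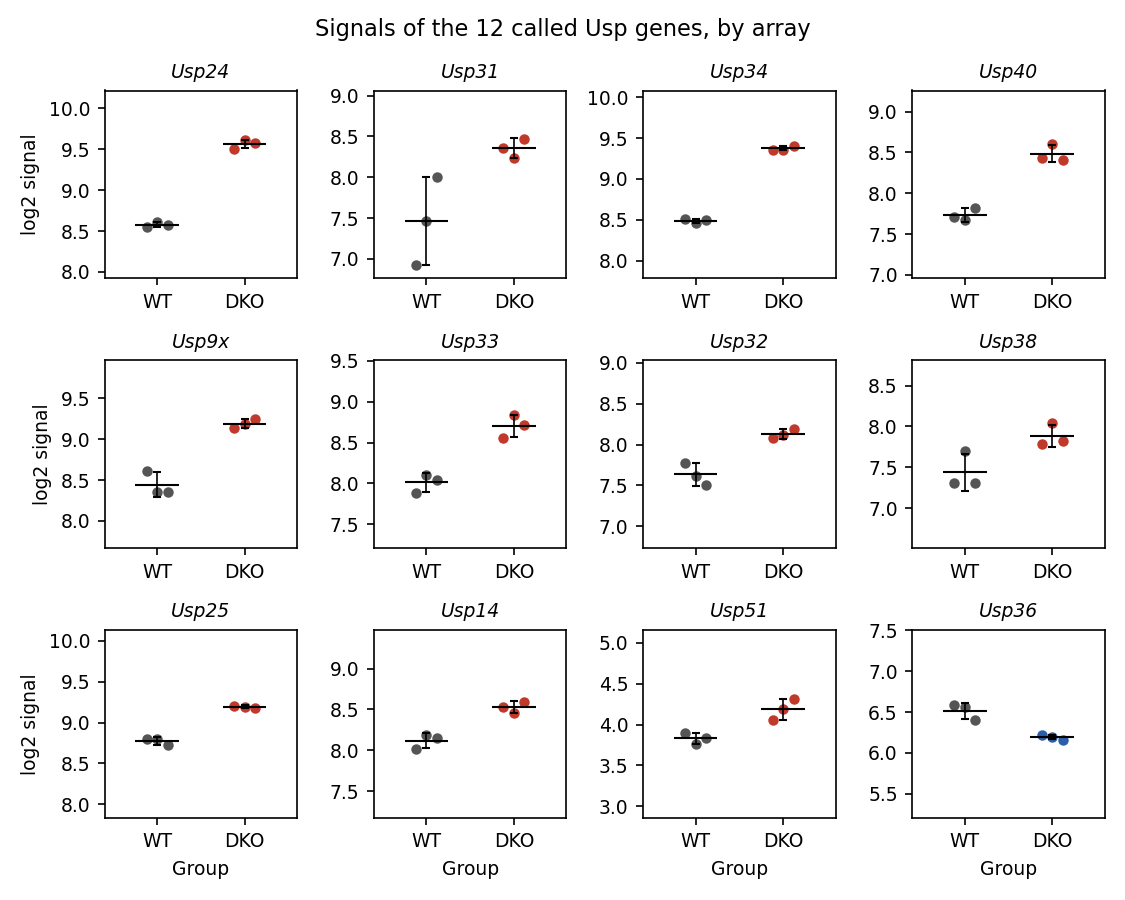
Each panel is 1 of the 12 Usp genes that rose or fell, with the log2 signal of every array (points), the mean (line) and the SD (bar) of 3 WT and 3 DKO samples, on axes that all span the same number of log2 units. In each panel the groups do not overlap, with WT samples of Usp31 the most spread (SD 0.54).

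Among proteases of histones and chromatin, 1 of 8 rose, 1 fell and 6 did not pass, with a median difference of -0.03. Each share was 12.5%, near the 9.71% and 7.69% of all genes. Of brighter genes, which 6 of these 8 are, 17.5% rose and 10.5% fell. Usp36, a nucleolar protease that stabilises Myc, had signals of 6.22, 6.20 and 6.16 in DKO and 6.58, 6.56 and 6.41 in WT. It was wholly lower in DKO and fell by 0.32 (SE 0.09, adjusted p = 0.0316). The call was lost under 8 of 21 alternatives, among them without DKO replicate 1, 2 or 3 (adjusted p = 0.082, 0.0858 and 0.105) or WT replicate 1 or 2 (0.0755 and 0.0724), over all alternatives 0.0186 to 0.105. Usp51, one of the alternative proteases of the SAGA module, had 4.05, 4.19 and 4.32 in DKO and 3.90, 3.76 and 3.84 in WT. Although DKO values were all higher (0.35, adjusted p = 0.0328), the gene was among the dimmest 25% of probe sets on all arrays, which leaves the size uncertain. The call of Usp51 was lost without DKO replicate 2 (adjusted p = 0.0906) or 3 (0.126) and without WT replicate 2 (0.0798) or 3 (0.0748), over all alternatives 0.0167 to 0.126.

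Usp22, the main SAGA protease, which removes ubiquitin from histone H2B, had 7.31, 7.44 and 7.43 in DKO and 7.24, 7.20 and 7.13 in WT. It stood wholly higher in DKO by a small amount and did not pass (0.20, adjusted p = 0.138). Usp16 and Usp3, proteases of histone H2A that are known to matter for blood stem cells, were at 0.14 and -0.02 (adjusted p = 0.337 and 0.907). Usp21 (-0.05), Usp27x (-0.10) and Usp44 (-0.28), a protease of the mitotic checkpoint, did not pass either.

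Of 5 proteases of the proteasome, free ubiquitin chains and organelles, 2 rose (40%, beside 9.71% of all genes) and 3 did not pass. Of brighter genes, which 4 of these 5 are, 17.5% rose. Usp14, which trims chains on the proteasome, rose by 0.41 (8.53 ± 0.07 in DKO and 8.12 ± 0.09 in WT, SD, n = 3, adjusted p = 0.0128). It missed the threshold with quantile normalisation (0.28, adjusted p = 0.0502), with the trend over signal removed (0.0649) or that over signal and span (0.0948), and without DKO replicate 3 (0.0576), in a range of 0.00757 to 0.0948. Usp32, a membrane-bound protease of endosomes, had signals of 8.08, 8.11 and 8.20 in DKO and 7.78, 7.61 and 7.51 in WT. It was wholly higher, by 0.50 (SE 0.10, adjusted p = 0.00711), and was at 0.28 with the trend over signal and span removed (0.0901). Usp5, which recycles free ubiquitin chains, Usp30 of mitochondria and Usp35 were at -0.09, 0.18 and 0.05 without passing.

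Usp40 is little studied, and its signals were 8.43, 8.60 and 8.41 in DKO and 7.70, 7.67 and 7.82 in WT. It was wholly higher in DKO and rose by 0.75 (SE 0.09, adjusted p = 0.000831), the only 1 of 11 little-studied, tissue-restricted or non-protease members to pass (9.09%, near the 9.71% of all genes). Usp54 had 7.93, 8.24 and 7.83 in DKO and 7.70, 7.48 and 7.68 in WT, wholly higher without passing (0.38, adjusted p = 0.0589). The other probe set of Usp54 had 7.75, 7.66 and 7.56 in DKO and 7.02, 7.08 and 7.36 in WT, again wholly higher, at 0.50 (adjusted p = 0.0407 over all probe sets, where the first was at 0.118). Usp54 passed under 6 of 21 alternatives, among them the mean of both probe sets (0.44, adjusted p = 0.0168, in a range of 0.0134 to 0.364). Usp6nl, the Rab regulator, had 7.88, 7.84 and 7.83 in DKO and 7.98, 7.72 and 7.77 in WT, overlapping, with a difference of 0.03 (adjusted p = 0.868). Usp46os2 (-0.03), Usp53 (0.20), Usp26 (0.10), Usp50 (0.05) and Usp43 (-0.04) did not pass, nor did the cell cycle protease Usp37 (0.19) and the splicing factor Usp39 (-0.12).

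Of the genes left out of this set by name, Usp1, the protease of Fancd2, differed by 0.14 without passing (adjusted p = 0.457). The interferon-induced Usp18 rose by 0.80 (adjusted p = 0.00328).

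**Figure D4:**
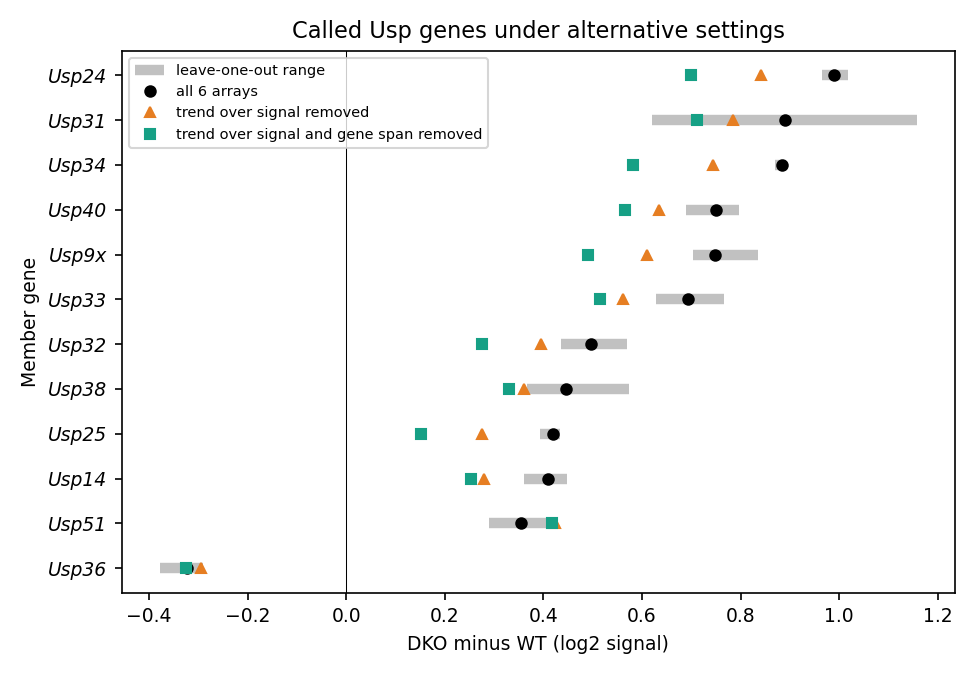
For each of the 12 Usp genes that rose or fell, the black circle is the DKO minus WT difference in log2 signal over 6 arrays, the grey bar the range when each array was left out in turn, the orange triangle the value with the trend over signal removed and the green square that with the trend over signal and gene span removed. All values stay on the same side of 0, and that of Usp25 goes from 0.42 to 0.15.

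Other genes of the ubiquitin system were taken from 3 lists. Of 37 measured genes listed as other deubiquitinases, 11 rose (29.7%), 3 fell (8.11%) and 23 did not pass, with a median of 0.11. Not all of the 37 encode deubiquitinases, since Uspl1, Pan2 and Cops5 are only related to them. Cops5 was among the 11 that rose (0.32, adjusted p = 0.0286). Of all genes 9.71% rose and 7.69% fell, and of brighter genes, which 31 of these 37 are, 17.5% and 10.5%. They were as bright as the Usp genes or brighter (median signal 7.75 against 7.29). Zup1, a protease of long K63-linked chains, rose by 1.04 and Mindy2, which prefers K48-linked chains, by 1.04 (adjusted p = 0.000202 and 0.0003). Brcc3, the K63-specific subunit of the BRCA1-A complex, rose by 0.66, and Cyld, which has a Usp-type domain and limits NF-kappaB signalling, by 0.62 (adjusted p = 0.00081 and 0.00399). The 3 that fell were Otulin, Mpnd and Otud6b. The count of 11 was 6 with the trend over signal removed and 4 with that over signal and span removed, and 7 without DKO replicate 2 or 3 or WT replicate 3. Over all genes the 1936 rises became 1585 and 1447 with these trends removed, and 1354, 1250 and 1555 without these arrays. The fall count was 0 without DKO replicate 1 or 2, where the 1533 falls over all genes became 843 and 876.

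Of 17 partners and substrates of Usp proteases, 4 rose (23.5%), 1 fell (5.88%) and 12 did not pass. Of these 17, 16 were among the brighter genes, of which 17.5% rose and 10.5% fell, beside 9.71% and 7.69% of all genes. Stam and Stam2, the endosomal partners of Usp8, rose by 0.46 and 0.42 (adjusted p = 0.025 and 0.0121), Atxn7l1 by 0.65 and Mdm2 by 0.43 (0.0113 and 0.0179). Sart3, which targets Usp4 and Usp15 to the spliceosome, fell by 0.62 (adjusted p = 0.00281). Wdr48, the activator of Usp12 and Usp46, was at 0.06 (adjusted p = 0.71). The rise count was 2 without DKO replicate 2, 1 without DKO replicate 3 and 1 with the trend over signal and span removed. Over all genes the 1936 rises became 1354, 1250 and 1447, in that order.

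Of 37 genes listed for ubiquitin activation and conjugation, 7 rose (18.9%), 7 fell (18.9%) and 23 did not pass, with a median of 0.03. The list also holds Uba7, Ube2l6 and Ube2f, enzymes of ubiquitin-like proteins. Uba7 was among the 7 that rose (0.45, adjusted p = 0.00887). Of all genes 9.71% rose and 7.69% fell, and of brighter genes, which 31 of these 37 are, 17.5% and 10.5%. Ube2s, the chain-extending enzyme of the anaphase-promoting complex, fell by 1.21 and Cdc34, the partner of SCF ligases, by 0.61 (adjusted p = 0.00124 and 0.00295). Ube2s has 2 probe sets, and the value is that of the brighter one only. Birc6, a giant conjugating enzyme that blocks apoptosis, rose by 0.66 and Uba6, an activating enzyme, by 0.73 (adjusted p = 0.00235 and 0.00322). The fall count was 4 without any 1 DKO sample or WT replicate 3. With the mean of each gene's probe sets it was 5, beside 1527 falls over all genes. Over all genes the 1533 falls became 843, 876 and 854 without DKO replicates 1, 2 and 3, and 1044 without WT replicate 3.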

How the data were processed

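The 6 arrays were Affymetrix GeneChip Mouse Gene 1.0 ST, hybridised with amplified cDNA, per the labels' protocols. The deposited values are log2 gene-level signals. The authors' sample titles name the RMA gene-level default, the design text names MAS 5.0, and Affymetrix Expression Console 1.0 is in the submitters' processing notes. Near-equal array quartiles are as log2 RMA gives them. The genome build is unknown here.

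Of 35556 probe sets, 21789 had 1 gene symbol in the platform annotation, giving 19938 genes. DKO minus WT was tested with limma 3.58.1 (R 4.3.3, lmFit and eBayes, two-sided), with Benjamini-Hochberg adjustment over all genes, a threshold of 0.05 and no dim-signal filter. The number of arrays limits precision. On simulated data (19938 genes, 200 changed) the test recovered 88% of changes of 1 and 38% of 0.5 on the log2 scale. In the data themselves 3469 genes passed, far more than were changed in the simulation. The adjusted threshold depends on that number, so these rates need not hold for this comparison. Trends over signal and gene span were loess fits (span 0.5) of the difference, subtracted before the test.

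The members, lists and role groups were chosen with earlier results of these data known. Named were every member, with sample values for the 8 largest rises, the falls, relatives that differed in call or direction, genes with 2 probe sets, Usp6nl and Usp9y, and up to 4 genes of each list by smallest p. Sample values of Usp10 and Xist, Otulin, Mpnd, Otud6b, Cops5, Stam, Wdr48, Uba1y, Uba7 and the cell type markers were added after their values were seen. The promoter motifs were also chosen after the data were seen.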

Additional observations from a re-analysis of the deposited data

How the results depend on the processing

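The results were recomputed under 21 alternatives, which covered scaling, dim-gene filters, probe set choice, variance models, trends, thresholds, the replicate block and leaving out each sample. Of 12 called members, 5 (Usp24, Usp34, Usp40, Usp9x and Usp33) passed under all of them, 7 missed the threshold under at least 1, and 0 changed sign. Of 41 members that did not pass, 6 passed under at least 1 alternative and 21 changed sign under at least 1. Leaving out each sample in turn gave 7 to 12 members that rose and 0 to 1 that fell, a member median of 0.09 to 0.13, and 1250 to 1868 rises and 843 to 1388 falls over all genes. It gave 7 to 9 rises and 0 to 3 falls among other deubiquitinases, 1 to 4 rises and 1 fall among partners, and 6 to 7 rises and 4 to 7 falls among conjugation genes. Without DKO replicate 3 the members that rose were 7. The member median was 0.06 with quantile normalisation and 0.16 and 0.18 without the dimmest 25% and 50% of genes.

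With an adjusted p of 0.01, 7 members rose and 0 fell, 1058 and 588 genes rose and fell in all, 6 other deubiquitinases rose and 0 fell, 0 partners rose and 4 conjugation genes fell. Partners that fell were 2 at 0.1. With the trend over signal removed, 2 members fell, beside 1585 rises and 1536 falls over all genes, 6 other deubiquitinases rose and 3 partners fell. With the trend over signal and span removed, 6 members rose and 2 fell, beside 1447 and 1478 genes in all, 4 other deubiquitinases rose, and 1 partner rose and 3 fell. With quantile normalisation 2 members and 3 partners fell. With cyclic loess 7 other deubiquitinases rose and 3 partners fell. Partners that fell were 2 without the dimmest 50% of genes and 2 with the trended, robust variance. The cause was not tested.

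With the replicate number as a block, 10 members rose and 0 fell, with Usp36 and Usp51 not past the threshold (adjusted p = 0.0602 and 0.0594), beside 1772 and 1272 genes in all. Deviations from the group means of samples with the same number had correlations of -0.01, -0.10 and -0.04 over genes. Deviations from a mean of only 3 arrays are tied to one another, so these values cannot settle whether the numbers pair the samples. Changes near 0.5 on the log2 scale or below can be missed with 3 arrays a group.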
